A study of Mus musculus with 8 samples.

Results

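The erythroid transcription regulators described here are 10 genes, Gata1, Klf1, Hemgn, Nfe2, Gfi1b, Zfpm1, Epor, Lmo2, Tal1 and Gata2, named by symbol among the 20701 gene symbols of the table, and all 10 were found and passed the filter on low counts. Polyadenylated RNA of the outflow tract with the right ventricle (OFT/RV), dissected from C57BL/6 mouse embryos at stage E10.5, was sequenced for 4 wild-type embryos (CTRL) and 4 embryos hypomorphic for Isl1 (Isl1_hypo). The study writes the genotype of the hypomorphs as Isl1-f;neo/f;neo. These are alleles of the mouse line itself, so blood, endothelium and myocardium all carry them. Each library is 1 embryo, and no embryos were pooled. When 1 transcript was kept per symbol, that with the highest mean count, totals were 29748458 to 46678973 counts for the CTRL libraries and 18422245 to 33050298 counts for the Isl1_hypo libraries. Of the 10 genes, 7 are grouped here as red-cell restricted (Gata1, Klf1, Hemgn, Nfe2, Gfi1b, Zfpm1 and Epor) and 3 as shared with endothelium (Lmo2, Tal1 and Gata2). The grouping was set by name, with these 3 listed as shared and all others counted as restricted, although Zfpm1 and Epor are also known outside blood.

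Red blood cells of the early embryo are primitive erythroblasts that arise in the yolk sac, enter the circulation while still nucleated, and fill the heart and great vessels, so a dissected outflow tract brings blood with it. Their gene programme is run by a DNA-bound complex in which the zinc finger factor Gata1 and the basic helix-loop-helix factor Tal1 are bridged by the LIM-only protein Lmo2, together with the co-factor Zfpm1 (FOG1) and the zinc finger factor Klf1, which activates globin, haem and membrane genes. Gata2, Tal1 and Lmo2 are also made by endothelial cells, and Zfpm1 and Epor are made in endocardial and endothelial cells among others. In whole tissue, fewer cells of a type and less RNA per cell cannot be told apart.

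The targeted gene was examined first. Depth-scaled counts (CPM, scaled to the library total and a TMM factor) of Isl1 were 29.6, 61.5, 46.2 and 51.3 in the CTRL embryos, in the order of replicates used throughout, against 12.7, 6.86, 7.71 and 11.4 in Isl1_hypo. Isl1 fell by 2.29 on the log2 scale (edgeR quasi-likelihood test, SE 0.256, adjusted p = 0.0077). Markers of cardiomyocytes were abundant in every library, at a summed 45430 ± 4053 CPM in CTRL and 45110 ± 3662 CPM in Isl1_hypo (SD, n = 4). Actc1 alone makes up 49.3% of that sum, so it says little of the other markers, which are given below. Isl1_hypo replicate 3 stood apart from the rest, with 14305 genes detected against 14935 to 15396 in the others and a median rank correlation with its own group of 0.970 against 0.983 to 0.989. Embryonic globins (Hbb-bh1, Hbb-y and Hba-x), the red-cell product itself, summed to 1884, 2502, 4385 and 11090 CPM in CTRL and to 17500, 11100, 23040 and 14310 CPM in Isl1_hypo. CTRL replicate 4 thus held nearly as much globin as Isl1_hypo replicate 2, while CTRL replicates 1 to 3 were all below. Fold changes of the regulators are therefore also given without Isl1_hypo replicate 3 and without CTRL replicate 4.

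The comparison of the groups asked whether the regulators differed as a set of parallel genes or split by the cell types that use them. Hemgn, Gfi1b, Gata1, Klf1 and Nfe2 were 2.32 to 4.56 times as high in the mean of Isl1_hypo as in CTRL, Tal1 was 1.86 times as high, Epor, Lmo2 and Gata2 differed by less, and Zfpm1 was at 0.620 of its CTRL level. None of the 10 passed an adjusted p of 0.05 in the edgeR quasi-likelihood test (0 of 10, where 0.269% of the 13769 genes tested did). At an unadjusted p under 0.05 the count was 7 of 10, 6 higher and 1 lower, against 11.9% of all genes (5.69% higher and 6.17% lower). DESeq2 called 4 of 10, all higher (1.07% of all genes higher and 1.24% lower), and limma-voom called 1 (0.516% of all genes higher and 0.458% lower). The 6 higher and 1 lower remained in number without Isl1_hypo replicate 3, without CTRL replicate 4 and without each of the other 6 libraries, where 9.26% to 13.8% of all genes had an unadjusted p under 0.05. In 4 genes the groups did not overlap, with Klf1, Hemgn and Gfi1b higher in every Isl1_hypo embryo and Zfpm1 lower in every one, against 8.5% of all genes (4.06% higher and 4.44% lower). Without CTRL replicate 4 the groups of Gata1 and Nfe2 were also apart, giving 5 higher and 1 lower where 12.1% of all genes did not overlap, and without Isl1_hypo replicate 3 there were 3 higher and 1 lower against 11.2%.

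**Figure D1:**
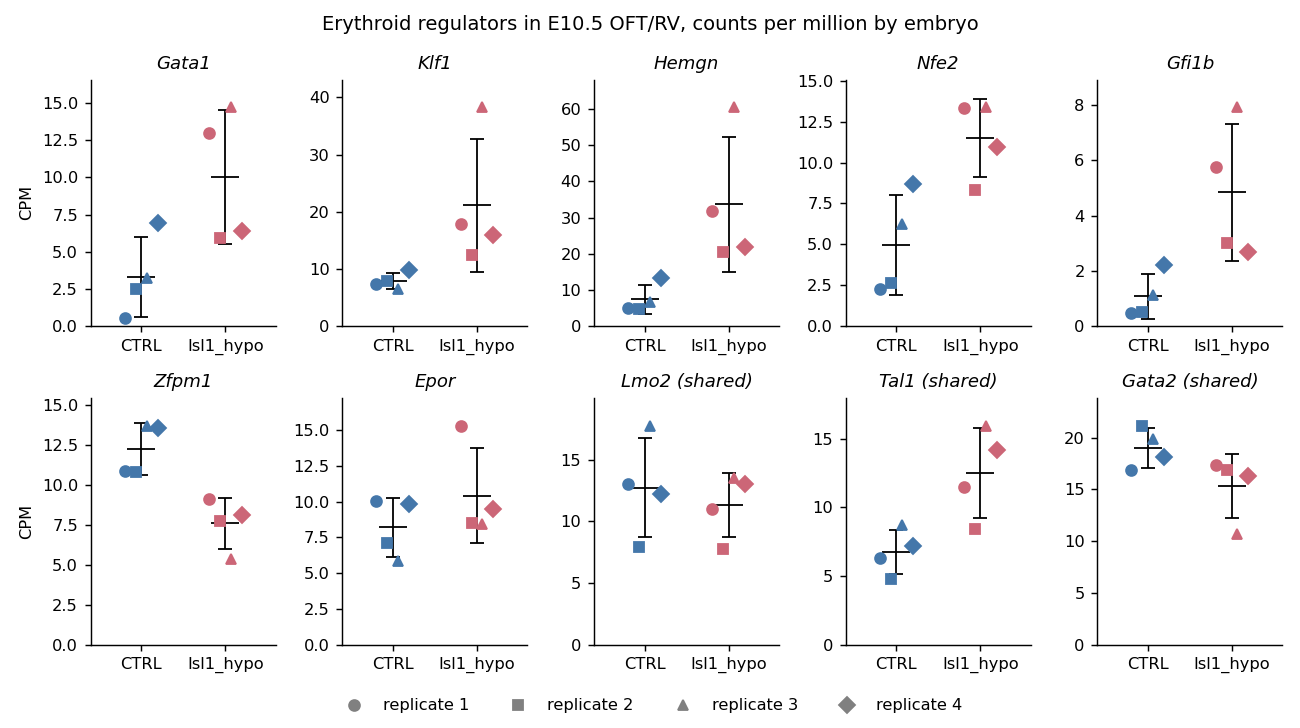
Level of each of the 10 regulators in CPM (vertical axis, from 0, a scale of its own for each gene) in the 4 CTRL and 4 Isl1_hypo embryos, with replicates marked by shape and the mean ± SD as bars. Klf1, Hemgn and Gfi1b lie higher in every Isl1_hypo embryo, Zfpm1 lies lower in every one, and the triangle of Isl1_hypo replicate 3 is the highest point for 6 genes and the lowest for Zfpm1 and Gata2.

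Klf1 (mm9 chromosome 8, 87425827 to 87429194, plus strand) is the erythroid Krüppel-like factor that binds CACC boxes of the beta-globin and other red-cell promoters. It was at 7.36, 7.95, 6.56 and 9.73 CPM in the CTRL embryos and at 17.8, 12.4, 38.3 and 15.98 CPM in Isl1_hypo. The lowest Isl1_hypo embryo lay above the highest CTRL embryo, and replicate 3 was well above the rest of its group. The mean was 7.90 ± 1.35 CPM in CTRL and 21.1 ± 11.7 CPM in Isl1_hypo (SD, n = 4), higher by 1.42 on the log2 scale (edgeR, SE 0.316, adjusted p = 0.106). The log2 fold change was 0.96 without Isl1_hypo replicate 3 and 1.54 without CTRL replicate 4. CTRL embryos differed little in Klf1, with a 1.48-fold range, whereas their globin sums differed much more.

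Hemgn (chromosome 4, 46406861 to 46426378, minus strand) encodes hemogen, a nuclear protein of blood progenitors and erythroblasts that lies downstream of Gata1. Its levels were 5.09, 4.70, 6.53 and 13.2 CPM in CTRL and 31.9, 20.4, 60.6 and 21.7 CPM in Isl1_hypo. Again the groups were apart, with CTRL replicate 4 the highest of the controls. The mean of 7.38 ± 3.95 CPM in CTRL stood against 33.7 ± 18.7 CPM in Isl1_hypo (SD, n = 4), higher by 2.19 on the log2 scale (edgeR, SE 0.408, adjusted p = 0.0577). Hemgn was the regulator nearest to the threshold, and its adjusted p was 0.0279 without CTRL replicate 4, 0.0151 in limma-voom and 3e-06 in DESeq2, with a range of 3e-06 to 1.0 over all alternatives. Its log2 fold change was 1.73 without Isl1_hypo replicate 3 and 2.63 without CTRL replicate 4.

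Gfi1b (chromosome 2, 28464970 to 28477502, minus strand) is a zinc finger repressor that recruits the Lsd1 and CoREST complex in erythroid cells and megakaryocytes. It was at 0.480, 0.492, 1.12 and 2.22 CPM in CTRL and 5.76, 2.998, 7.93 and 2.70 CPM in Isl1_hypo, and CTRL replicate 1 rested on 15 counts (95% Poisson interval 0.269 to 0.792 CPM, counting error only). The groups did not overlap, but CTRL replicate 4 and Isl1_hypo replicate 4 came close to each other. Its log2 fold change was 2.15 (edgeR, SE 0.562, adjusted p = 0.178), and 1.80 without Isl1_hypo replicate 3 or 2.79 without CTRL replicate 4.

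The sequences just upstream of these 3 genes, and of Zfpm1, which went the other way, are printed because these are the 4 regulators whose groups were apart. Each is the 250 bases before a RefSeq transcription start, on the build GRCm38.p6 and written 5′ to 3′ on the gene's strand. GRCm38.p6 is not the mm9 build of the other coordinates. Capitals mark the letters AGATAA or TGATAA, both forms of the GATA site, and CCNCNCCC, the CACC-type letters, on either strand.
Klf1 (chr8:84901732-84901981, plus strand): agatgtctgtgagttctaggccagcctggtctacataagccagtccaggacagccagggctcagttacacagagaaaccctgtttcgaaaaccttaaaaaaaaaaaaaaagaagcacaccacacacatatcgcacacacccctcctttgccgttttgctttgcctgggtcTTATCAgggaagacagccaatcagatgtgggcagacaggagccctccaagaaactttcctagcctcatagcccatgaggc
Hemgn (chr4:46404184-46404433, minus strand): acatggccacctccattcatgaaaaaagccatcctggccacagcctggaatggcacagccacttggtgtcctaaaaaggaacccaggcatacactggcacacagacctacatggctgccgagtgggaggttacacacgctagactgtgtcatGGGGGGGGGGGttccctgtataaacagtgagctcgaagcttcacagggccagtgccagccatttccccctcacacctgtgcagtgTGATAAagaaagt
Gfi1b (chr2:28621983-28622232, minus strand): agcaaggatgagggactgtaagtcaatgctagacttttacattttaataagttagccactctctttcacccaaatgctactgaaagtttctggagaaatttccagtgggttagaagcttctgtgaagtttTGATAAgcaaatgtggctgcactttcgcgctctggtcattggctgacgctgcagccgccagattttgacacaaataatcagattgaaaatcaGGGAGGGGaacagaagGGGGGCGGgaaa
Zfpm1 (chr8:122281891-122282140, plus strand): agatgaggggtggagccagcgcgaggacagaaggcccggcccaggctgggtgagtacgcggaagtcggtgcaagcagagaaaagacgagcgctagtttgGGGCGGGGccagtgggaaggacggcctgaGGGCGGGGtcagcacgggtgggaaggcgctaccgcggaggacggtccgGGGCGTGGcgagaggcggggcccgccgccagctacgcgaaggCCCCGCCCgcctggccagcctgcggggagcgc

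Of the 10 regulators, 8 had an entry in the promoter table, with 10 promoters in all, and Nfe2 and Lmo2 had none. TGATAA was looked for after the sequences had been seen, so its share of all promoters is no test of it. It was found 80 bases before the start of Klf1, 13 before that of Hemgn and 120 before that of Gfi1b. It was in no other regulator with an entry, and in 9.05% of all 32851 promoters, each of 250 bases before and 50 after the start. AGATAA was found for Hemgn, Tal1 and Epor (11.2% of all promoters), in Hemgn just after the start. CCNCNCCC stood in 8 of the 10 promoters and 49.5% of all, with 4 matches in Zfpm1 and none in Klf1, and CANNTG, the E-box of Tal1 and its partners, in 7 of 10 and 72.3% of all. TGAGTCA, the letters bound by Nfe2 with small Maf proteins, was in none of the 10 and in 5.2% of all. A match is a description of letters, not of binding.

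Gata1 (chromosome X, 7536386 to 7555197, minus strand), the factor without which erythroblasts do not mature, was at 0.512, 2.46, 3.23 and 6.95 CPM in CTRL and 12.98, 5.92, 14.7 and 6.37 CPM in Isl1_hypo. The groups overlapped, because CTRL replicate 4 lay above Isl1_hypo replicates 2 and 4. Its CTRL embryos covered a 13.6-fold range, down to 16 counts in replicate 1, and the SD of log2 CPM among them was larger than for 98.2% of all genes tested. The mean was 3.29 ± 2.70 CPM in CTRL and 9.999 ± 4.51 CPM in Isl1_hypo (SD, n = 4), higher by 1.59 on the log2 scale (edgeR, SE 0.584, adjusted p = 0.312). That value was 2.26 without CTRL replicate 4 and 1.34 without Isl1_hypo replicate 3.

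Nfe2 (chromosome 15, 103078643 to 103088834, minus strand), which pairs with small Maf proteins at the globin locus control region and is also needed for platelets, followed the same order. It was at 2.27, 2.63, 6.26 and 8.70 CPM in CTRL and 13.4, 8.32, 13.4 and 10.97 CPM in Isl1_hypo. Only CTRL replicate 4 and Isl1_hypo replicate 2 crossed. The log2 fold change was 1.21 (edgeR, SE 0.393, adjusted p = 0.283), with 4.97 ± 3.07 CPM in CTRL and 11.5 ± 2.41 CPM in Isl1_hypo (SD, n = 4). It was 1.12 without Isl1_hypo replicate 3 and 1.62 without CTRL replicate 4.

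Zfpm1 and Epor, the remaining pair counted as red-cell restricted, did not follow these 5 genes. Zfpm1 (chromosome 8, 124806039 to 124861146, plus strand), the GATA co-factor FOG1, was at 10.9, 10.8, 13.7 and 13.6 CPM in CTRL and 9.12, 7.76, 5.34 and 8.10 CPM in Isl1_hypo. Every Isl1_hypo embryo was below every CTRL embryo, and replicate 3, the highest for Gata1, Klf1, Hemgn, Nfe2 and Gfi1b, was the lowest here. The mean was 12.2 ± 1.63 CPM in CTRL and 7.58 ± 1.601 CPM in Isl1_hypo (SD, n = 4), a difference of -0.69 on the log2 scale (edgeR, SE 0.203, adjusted p = 0.224), which was -0.56 without Isl1_hypo replicate 3 and -0.64 without CTRL replicate 4. Epor (chromosome 9, 21763343 to 21768020, minus strand), the receptor through which erythropoietin keeps erythroid cells alive, was at 10.1, 7.11, 5.81 and 9.83 CPM in CTRL and 15.3, 8.47, 8.41 and 9.48 CPM in Isl1_hypo. Its groups overlapped throughout apart from the high Isl1_hypo replicate 1, and the log2 fold change, 0.34 (edgeR, SE 0.257, adjusted p = 0.623), became 0.10 without that embryo, 0.43 without Isl1_hypo replicate 3 and 0.44 without CTRL replicate 4.

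Among the 3 regulators shared with endothelium, Tal1 was higher in Isl1_hypo and the other 2 were not. Tal1 (chromosome 4, 114729031 to 114744360, plus strand), required for the first blood cells of the embryo, was at 6.33, 4.80, 8.69 and 7.16 CPM in CTRL and 11.5, 8.39, 15.96 and 14.2 CPM in Isl1_hypo. CTRL replicate 3 lay just above Isl1_hypo replicate 2, and the rest did not cross. The mean was 6.75 ± 1.63 CPM in CTRL and 12.5 ± 3.30 CPM in Isl1_hypo (SD, n = 4), higher by 0.89 on the log2 scale (SE 0.247, adjusted p = 0.201 in edgeR and 0.0424 in DESeq2). It was 0.75 without Isl1_hypo replicate 3 and 0.92 without CTRL replicate 4.

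Lmo2 (chromosome 2, 103798143 to 103822035, plus strand), the bridge of the complex, was at 13.1, 7.95, 17.8 and 12.2 CPM in CTRL and 10.97, 7.76, 13.5 and 13.01 CPM in Isl1_hypo, and the groups overlapped. Its log2 fold change, -0.17 (edgeR, SE 0.255, adjusted p = 0.827), turned to 0.03 without CTRL replicate 3, and was -0.27 without Isl1_hypo replicate 3 and -0.19 without CTRL replicate 4. Gata2 (chromosome 6, 88143885 to 88157024, plus strand), the GATA factor of blood stem cells and endothelium that gives way to Gata1 as erythroblasts mature, was at 16.8, 21.2, 19.8 and 18.1 CPM in CTRL and 17.4, 16.9, 10.7 and 16.3 CPM in Isl1_hypo. Of these, Isl1_hypo replicate 3 was far below the other 7 embryos, which overlapped. The log2 fold change was -0.31 (edgeR, SE 0.178, adjusted p = 0.517), -0.17 without that replicate and -0.33 without CTRL replicate 4.

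**Figure D2:**
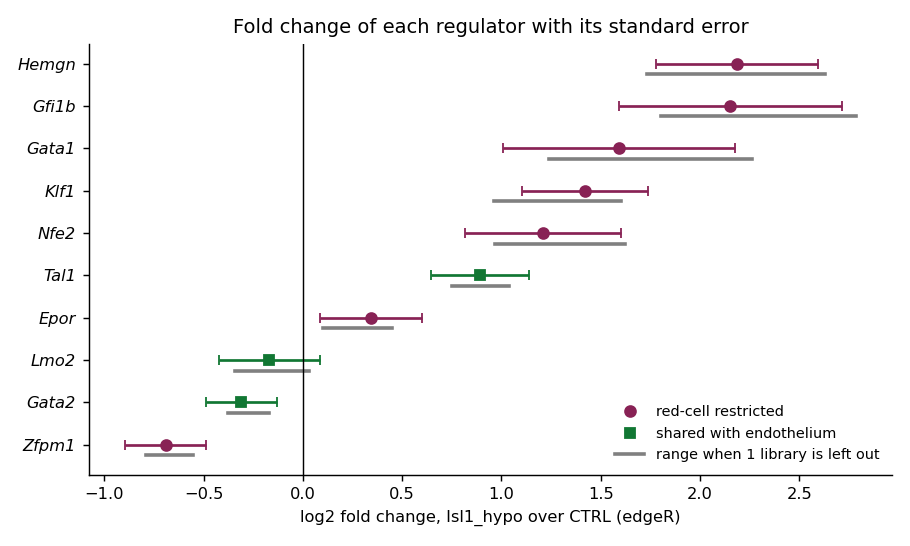
Log2 fold change of each regulator, Isl1_hypo over CTRL, from edgeR (horizontal axis), with points for the estimate, error bars of 1 SE, and grey bars for the range when 1 of the 8 libraries is left out in turn. Red-cell restricted genes run from -0.69 for Zfpm1 to 2.19 for Hemgn, and those shared with endothelium from -0.31 for Gata2 to 0.89 for Tal1, and among the grey bars that of Lmo2 crosses 0.

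Set side by side, the 7 red-cell restricted regulators had a median log2 fold change of 1.42 with 6 higher and 1 lower, and the 3 shared with endothelium had a median of -0.17 with 1 higher and 2 lower. Over all genes tested the median was 0.006. These medians are descriptions of genes chosen by name, and the difference between the 2 groups of genes was not tested. The split follows the grouping only in part, since Tal1 lay among the higher genes and Zfpm1 among the lower ones. When the mean log2 CPM of the globin genes was a covariate of the fit, the median of the restricted genes was 0.29, and the log2 fold changes were 0.24 for Gata1, 0.78 for Klf1, 0.93 for Hemgn, 0.08 for Nfe2, 0.65 for Gfi1b and 0.44 for Tal1, while that of Zfpm1 was -0.78 and that of Lmo2 -0.51. In that fit 0 of 10 regulators and 0 of all genes passed the adjusted threshold in edgeR. Because the globin level differed between the groups, the covariate and the genotype are partly confounded and cannot be told apart.

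The same embryos stood highest in 5 of the 7 restricted genes. CTRL replicate 4 was the highest control for Gata1, Klf1, Hemgn, Nfe2 and Gfi1b, which is 5 of 7 restricted and 0 of 3 shared genes, and Isl1_hypo replicate 3 was the highest of all 8 libraries for these 5 and for Tal1. When log2 CPM of each gene was centred on its mean over the 8 libraries and averaged, the restricted genes stood at -1.20, -0.94, -0.51 and 0.18 in CTRL replicates 1 to 4 and at 0.90, 0.19, 1.05 and 0.34 in Isl1_hypo. CTRL replicate 4 and Isl1_hypo replicate 2 were nearly level on this scale. For the shared genes the averages were -0.11, -0.37, 0.27 and -0.05 in CTRL and 0.11, -0.22, 0.13 and 0.26 in Isl1_hypo, so the groups overlapped. The restricted average minus the shared average also overlapped between the groups, with 0.23 in CTRL replicate 4 against 0.08 in Isl1_hypo replicate 4.

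**Figure D3:**
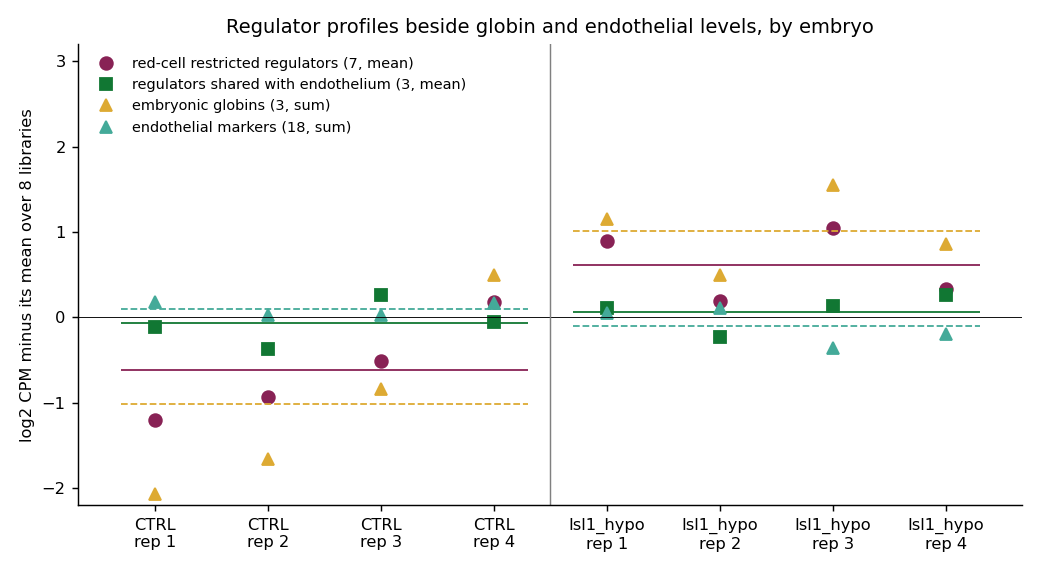
Mean centred log2 CPM of the 7 red-cell restricted and of the 3 shared regulators in each embryo, beside the centred log2 sums of 3 embryonic globins and 18 endothelial markers (vertical axis, log2 CPM minus its mean over 8 libraries), with horizontal lines at the group means. The average of the restricted regulators runs with the globins from -1.20 in CTRL replicate 1 to 1.05 in Isl1_hypo replicate 3. Not every member does so, and Zfpm1 is lowest in that replicate. The average of the shared regulators stays between -0.37 and 0.27.

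Likeness between genes was measured as the mean absolute difference of their centred log2 CPM over the 8 libraries. Among the regulators, Zfpm1 and Gata2 were the closest pair at 0.22, followed by Gfi1b and Hemgn at 0.26 and Klf1 and Tal1 at 0.34, so the closest pairs joined Zfpm1 and Tal1 each to a gene of the other group. Of 10735 other genes with a mean of at least 5 CPM, those closest to the restricted average were Smpd3, Rab32, Prokr2, Hbb-bs and Hbb-b1, at 0.20 to 0.22 against a median of 0.67 over those genes. Hbb-bs and Hbb-b1 are near-identical adult beta-globin copies that share reads. For the shared average they were Npepl1, Anp32b, Tpst1, Tomm70a and Sntb2, at 0.07 to 0.08 against a median of 0.26.

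Single regulators had partly different neighbours. Klf1 was nearest to Cpox, an enzyme of haem synthesis (0.15), Bhlhe41 and the mitochondrial iron importer Slc25a37. Gata1 was nearest to Krt7, the Rh antigen gene Rhd and Upk3b at 0.32 to 0.33, of which Krt7 and Upk3b are known from epithelium and mesothelium rather than blood. Tal1 was nearest to Dfna5, Cited4 and the metal transporter Slc39a8, Gata2 to Id1, Zfp574 and Ptprg (0.03 to 0.06), and Lmo2 to Srpx2, Mms22l and Rb1cc1.

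The exchange of Gata2 for Gata1 during erythroid maturation was followed as the log2 ratio of their CPM (prior count 2). It was -4.88, -3.07, -2.60 and -1.38 in CTRL and -0.42, -1.50, 0.46 and -1.35 in Isl1_hypo. CTRL replicate 4 lay within the Isl1_hypo range, and on this scale, which is not corrected for transcript length, Isl1_hypo replicate 3 alone was above 0. Per length, as RPKM, Gata1 was above Gata2 in Isl1_hypo replicates 1 (4.19 against 3.28) and 3 (4.57 against 1.95). The mean differed by 2.28 on the log2 scale (-2.98 ± 1.45 in CTRL and -0.70 ± 0.91 in Isl1_hypo, SD, n = 4), with p = 0.0571 in an exact 2-sided permutation test over 70 assignments, whose smallest possible p is 0.0286. Without CTRL replicate 4 the difference was 2.81 (exact permutation p = 0.0286, the smallest possible there), and without CTRL replicate 1 it was 1.65 (exact permutation p = 0.114). Gata2 is known from endothelium as well as blood, and the part of each cell type in the ratio was not tested.

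Each regulator was next set against the blood and endothelium of its own embryo. The first reference was the sum of 27 red-cell target genes other than globins, which was itself higher by 0.61 on the log2 scale and of which Alad, made by many cells, is 20.2%. Relative to it the difference between the groups was 1.72 for Gfi1b, 1.57 for Hemgn, 1.39 for Gata1, 0.80 for Nfe2, 0.69 for Klf1 and 0.27 for Tal1, against -0.28 for Epor, -0.76 for Lmo2, -0.94 for Gata2 and -1.32 for Zfpm1. Gfi1b, Hemgn and Klf1 were still higher in every Isl1_hypo embryo, and Zfpm1 still lower in every one. Gata2 was lower in every one only after this scaling, since its groups overlapped in CPM. Against globins the picture changed for several genes. Relative to the summed embryonic globins, which were themselves higher by 2.03 on the log2 scale, the difference between the groups was -0.03 for Gata1, 0.14 for Hemgn and 0.29 for Gfi1b, and these 3 overlapped. It was -0.62 for Nfe2, -0.74 for Klf1, -1.15 for Tal1, -1.70 for Epor, -2.18 for Lmo2, -2.36 for Gata2 and -2.74 for Zfpm1. Nfe2, Epor, Lmo2, Gata2 and Zfpm1 were lower than CTRL in every Isl1_hypo embryo on this scale. Of these, only Zfpm1 was also lower in every one in CPM. A gene at the same CPM in both groups is lower on this scale by as much as globin was higher. The share of all genes apart between the groups is not given for either reference, so these counts say little about the regulators themselves. On this scale Gata1, Hemgn and Gfi1b differed about as much as globin did, and the signs of Klf1, Nfe2, Tal1 and, at -0.03, Gata1 were opposite to those against the first reference. The order seen with globins was also seen against 11 red-cell genes such as Slc4a1 and Alas2, a reference added after seeing the data, with 0.12 for Gata1, 0.30 for Hemgn, 0.45 for Gfi1b, -0.47 for Nfe2, -0.59 for Klf1 and -0.997 for Tal1.

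The spread among embryos of 1 group changed with this scaling in a way that differed between the genes. The pooled within-group SD of Gfi1b was 0.92 on the log2 CPM scale, 0.32 relative to globins and 0.27 relative to the red-cell genes, and that of Hemgn was 0.70, 0.43 and 0.27. For Nfe2 it was 0.71, 0.29 and 0.32, and for Gata1 1.22, 0.61 and 0.71. For the other 6 it was larger after scaling to globins or to the red-cell genes than before, for example 0.25 and 0.96 for Gata2 and 0.27 and 0.85 for Zfpm1 relative to globins, and Klf1 went from 0.52 to 0.74. Over the embryos of a group Gfi1b, Hemgn, Nfe2 and Gata1 therefore kept a steadier ratio to globin than to the whole library. Klf1 did so against the sum of non-globin target genes, where its SD was 0.32, and not against globins.

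**Figure D4:**
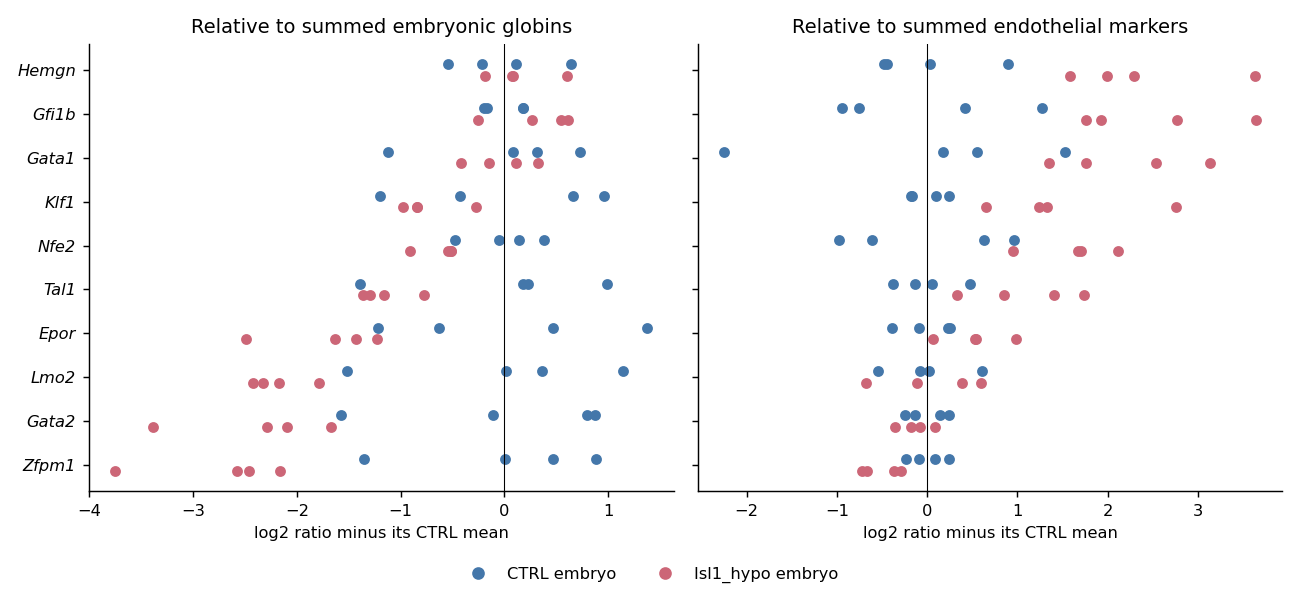
Log2 ratio of each regulator to the summed embryonic globins (left) and to the summed endothelial markers (right) in each embryo, with the CTRL mean of the gene set to 0 (horizontal axes). The globin sum was itself higher in Isl1_hypo, by 2.03 on the log2 scale. Against globins the embryos of both groups lie together for Hemgn, Gfi1b and Gata1 and are apart for Lmo2, Gata2 and Zfpm1. Against endothelial markers Lmo2 and Gata2 overlap while Hemgn, Gfi1b and Klf1 are apart.

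Endothelial markers summed to 1568 ± 92.5 CPM in CTRL and 1378 ± 208 CPM in Isl1_hypo (SD, n = 4), with ranges of 1486 to 1653 and 1139 to 1583 CPM and with Isl1_hypo replicate 3 the lowest. Relative to that sum, Lmo2 differed by 0.05, Gata2 by -0.13 and Zfpm1 by -0.51 on the log2 scale, and Zfpm1 was still lower in every Isl1_hypo embryo. Tal1 stood at 1.08, between these and Klf1 at 1.49, Nfe2 at 1.61, Gata1 at 2.20, Hemgn at 2.37 and Gfi1b at 2.52. The pooled within-group SD of Gata2 was 0.25 on the log2 CPM scale and 0.21 relative to endothelium, and that of Zfpm1 was 0.27 and 0.21. It grew for the other shared genes, from 0.43 to 0.52 for Lmo2 and from 0.38 to 0.51 for Tal1. In all it was smaller after this scaling for 3 of the 10 regulators and for 1 of the 3 shared with endothelium. Members of the list had estimates of both signs, and Nfatc1 (log2 fold change 0.36), Npr3 (0.28), Emcn (0.23) and Sox7 (0.09) had higher estimates. Pecam1 and Cdh5 alone, defining genes of endothelial junctions and among the lower members, were lower in every Isl1_hypo embryo (233 ± 22.2 against 158 ± 31.3 CPM, SD, n = 4), and against these Zfpm1 differed by -0.13 with overlap, Gata2 by 0.25 and Lmo2 by 0.43. The part of endothelial content in the levels of Zfpm1, Gata2 and Lmo2 was not tested.

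The regulators were ranked by level per length, as RPKM, reads scaled to transcript length and library total. In CTRL the order was Lmo2 at 4.88 ± 1.51, Gata2 at 3.60 ± 0.33, Klf1 at 3.17 ± 0.54, Epor at 2.77 ± 0.73, Zfpm1 at 2.22 ± 0.27, Hemgn at 1.96 ± 1.05, Nfe2 at 1.79 ± 1.10, Gata1 at 1.06 ± 0.87, Tal1 at 0.98 ± 0.23 and Gfi1b at 0.36 ± 0.28 RPKM (SD, n = 4). In Isl1_hypo it was Hemgn at 8.74 ± 4.68, Klf1 at 8.27 ± 4.40, Lmo2 at 4.25 ± 0.95, Nfe2 at 4.09 ± 0.84, Epor at 3.46 ± 1.14, Gata1 at 3.17 ± 1.41, Gata2 at 2.86 ± 0.62, Tal1 at 1.78 ± 0.45, Gfi1b at 1.603 ± 0.80 and Zfpm1 at 1.36 ± 0.31 RPKM (SD, n = 4). Lmo2 and Gata2 led in CTRL, and Hemgn and Klf1 led in Isl1_hypo, but no gene was separated from the next in either order, since the embryos of neighbours overlapped. All 10 lay far below the genes they control, such as Hbb-y at a mean of 2407 RPKM in CTRL and 7514 RPKM in Isl1_hypo.

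Genes that these regulators are known to activate in red cells were looked at as a list of 34, of which 33 were in the table and 31 passed the filter. Of the 31, 29 had a higher estimate in Isl1_hypo and 2 a lower one, and the median log2 fold change was 1.53. Epb42, which encodes the membrane skeleton protein 4.2, passed the adjusted threshold, rising from 2.12 ± 0.445 to 10.4 ± 4.03 CPM (SD, n = 4), or by 2.28 on the log2 scale (edgeR, SE 0.306, adjusted p = 0.0172). That is 1 of 31, where 0.269% of all genes were called, and 27 of 31 had an unadjusted p under 0.05, all higher (5.69% of all genes). DESeq2 called 12 (1.07% of all genes higher) and limma-voom 10 (0.516% higher). Next to Epb42 came the ankyrin gene Ank1 (log2 fold change 0.97), the Rh-associated glycoprotein gene Rhag (2.12) and the red-cell adhesion gene Ermap (2.38), each with an adjusted p of 0.0577 in edgeR. In all 4 genes every Isl1_hypo embryo was above every CTRL embryo, as in 13 of the 31 in all and 4.06% of all genes tested. Hba-a1 and Hba-a2 have identical values in this table, so the list of 31 holds 1 signal as 2 genes. The embryonic globins, at log2 fold changes of 1.67 for Hbb-y, 1.85 for Hba-x and 1.72 for Hbb-bh1, had adjusted p of 0.191 to 0.216 in edgeR. Without CTRL replicate 4, 12 of the list were called, and without CTRL replicates 1, 2 or 3 in turn, or with the globin or endothelial level as a covariate, 0.

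Genes whose proteins sit in complexes with these regulators or act beside them had estimates of both signs. Of 29 partners and co-regulators, 10 had a higher and 19 a lower estimate, the median log2 fold change was -0.09, and 0 passed the adjusted threshold in edgeR. At an unadjusted p under 0.05 there were 4 (11.9% of all genes), and DESeq2 called 2 (2.32% of all genes). Ikzf1, a zinc finger factor of blood cells, was at 1.38 ± 0.289 CPM in CTRL and 4.11 ± 1.25 CPM in Isl1_hypo (SD, n = 4), with every Isl1_hypo embryo higher and a log2 fold change of 1.57 (adjusted p = 0.112, edgeR). Of the widely made members, the Nfe2 relative Nfe2l1 was at -0.59, the small Maf gene Mafk, whose protein pairs with Nfe2, at -0.57, and the E-protein gene Tcf4, whose protein pairs with Tal1, at 0.27. Along the Epor pathway 10 of 11 genes passed the filter, 6 with a higher and 4 with a lower estimate, and none was called in edgeR, DESeq2 or limma-voom or had an unadjusted p under 0.05. The 4 with the smallest p were Pim1 (0.57), Stat5b (-0.20), Bcl2l1 (0.12) and Cish (0.34), targets or transducers of the receptor, and the ligand gene Epo had at most 8 counts in any library.

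Other cell types that could bring in these regulators were described through their markers. Megakaryocytes and platelets also use Gata1, Gfi1b, Nfe2, Zfpm1 and Tal1, and of 10 markers 9 had a higher and 1 a lower estimate, with a median log2 fold change of 0.72 and 0 called in edgeR or DESeq2. At an unadjusted p under 0.05, 3 were higher (5.69% of all genes) and 1 lower (6.17%). Pf4 was at 0.96, Ppbp at 1.16, Itga2b at 0.81 and Itgb3 at -0.57, and the summed level overlapped, at 112 to 157 CPM in CTRL and 107 to 290 CPM in Isl1_hypo, with Isl1_hypo replicate 1 the highest. Haematopoietic progenitor markers had 5 tested genes and a median of -0.15, with Cd34, made by endothelium too, at -0.15 and with Ptprc, Runx1 and Myb at means of 0.484 to 1.49 CPM. Their sums ran from 244 to 334 CPM in CTRL and from 202 to 263 CPM in Isl1_hypo. Macrophage markers were 1 higher and 8 lower of 9 with a median of -0.86, at 14.6 to 33.5 CPM in CTRL and 4.27 to 24.7 CPM in Isl1_hypo, led in p by C1qa, C1qb, Csf1r and C1qc. In neither list was any gene called in edgeR, DESeq2 or limma-voom, or at an unadjusted p under 0.05.

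Endothelial markers, the other source of Gata2, Tal1 and Lmo2, had 4 higher and 14 lower estimates of 18 with a median log2 fold change of -0.19, and 0 were called in edgeR. At an unadjusted p under 0.05 there were 3 (11.9% of all genes), and DESeq2 called 1 (2.32% of all genes). Pecam1 was at -0.58, Cdh5 at -0.54, the tight junction gene Cldn5 at -1.12 and Sox17 at -0.55. Cardiomyocyte markers had a median of -0.14 over 10 genes, with Myh7 at -0.49, Ttn at -0.90, Myh6 at -0.31 and Actc1 at 0.17, and 0 called in edgeR. At an unadjusted p under 0.05 there were 3 of 10, and DESeq2 called 2, beside the same shares of 11.9% and 2.32% of all genes. Other GATA and FOG genes, which the developing heart and its surroundings are known to use, were also read. Gata3 was at -0.62, Gata5 at -0.56, Gata6 at -0.25 and Zfpm2 at 0.47, so that the FOG gene of the myocardium and Zfpm1 had estimates of opposite sign. None of the 5 was called in edgeR, 3 had an unadjusted p under 0.05 (11.9% of all genes), and DESeq2 called Gata3 (2.32% of all genes).

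**Figure D5:**
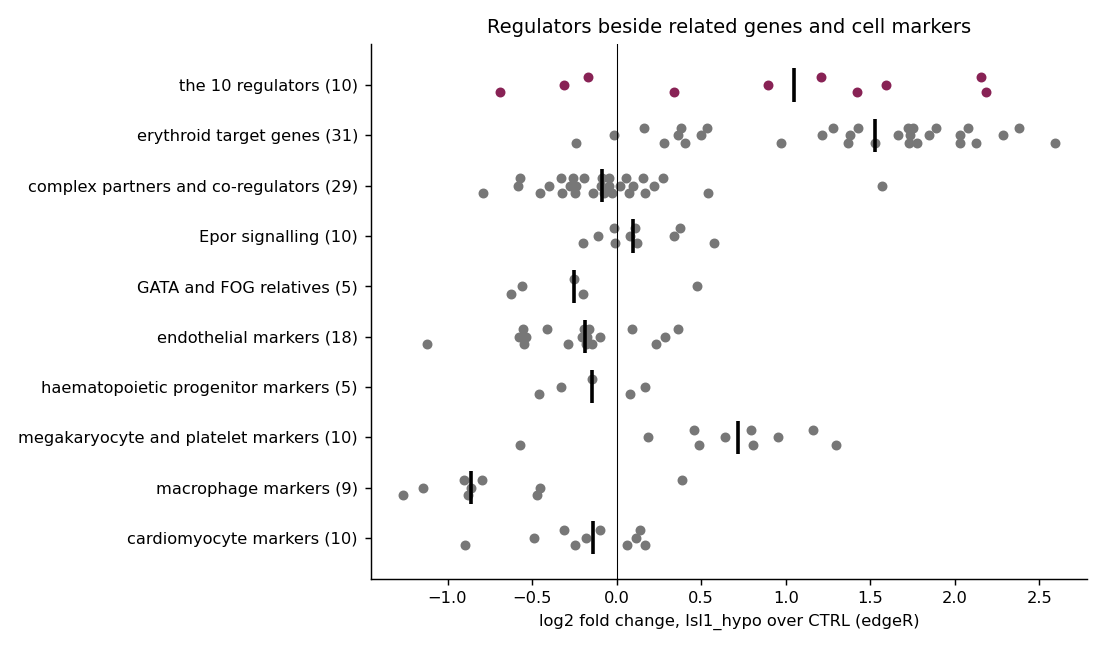
Log2 fold change, Isl1_hypo over CTRL, from edgeR (horizontal axis) for the 10 regulators and for the tested genes of 9 related lists (rows, number of genes in brackets), with a black bar at each median. The regulators spread from -0.69 to 2.19 around a median of 1.05, the red-cell target genes lie around 1.53, and partners, Epor pathway, endothelial and cardiomyocyte genes lie around 0.

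The choice of transcript had little effect on the regulators. Gata1, Klf1, Hemgn, Zfpm1, Epor and Gata2 had 1 transcript in the table, Gfi1b and Tal1 had 2, Lmo2 had 4 and Nfe2 had 6, and the mean log2 difference between the groups ran from 1.41 to 1.47 over those of Nfe2 and from -0.16 to -0.15 over those of Lmo2. In 0 of the 10 did an exon overlap an exon of another gene in the mm9 annotation, so the counting without strand adds no reads of an annotated neighbour.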

How the data were processed

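Polyadenylated RNA of 8 single-embryo OFT/RV samples was sequenced on the BGISEQ-500. According to the study's methods, reads were aligned to mm9 with STAR, and reads in exons were counted for RefSeq transcripts with HOMER, both strands together. The deposited counts are whole, unnormalised numbers, from which the authors computed the deposited RPKM values in edgeR. Versions of STAR, HOMER, DESeq2 and edgeR are not given in the sources used here. The table also holds the authors' own DESeq2 comparison (mean normalised signal, log2 fold change, its standard error, a Wald statistic as a score, p-value and adjusted p-value), which was not used.

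For each of the 20701 symbols (31507 transcripts) the transcript with the highest mean count was kept, filterByExpr left 13769 genes, and groups, taken from the sample labels, were compared with the edgeR 4.0.16 quasi-likelihood test (TMM, no covariates, R 4.3.3, Benjamini-Hochberg over all genes, threshold 0.05). The SE is the log2 fold change over the square root of F. CPM was scaled by library size and TMM factor, with a prior count of 2 for log2 CPM. The biological coefficient of variation was 26.4%. The scripts were tested on simulated data. Alternatives were RLE and upper quartile factors, DESeq2 1.42.0, limma-voom (limma 3.58.1) with sample weights, other filters, the longest transcript, globin removal, a replicate block, a globin or endothelial covariate, and each library left out. The red-cell gene reference and TGATAA were added after seeing the data.

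All 10 regulators were named. From every other list the up to 4 genes with the smallest unadjusted p and every called gene were named, and by likeness the 5 nearest genes to each average and the 3 nearest to Gata1, Klf1, Gata2, Tal1 and Lmo2. Other genes were named after their values were seen. The regulators, the lists and the rule were chosen with earlier results of these data known. Ahsp was not found, and Tspo2, Car1, Epo, Spn, Cd33, Flt3, Gfi1 and Fcgr1 did not pass the filter. Coordinates are from the GENCODE annotation of mm9, and promoters from RefSeq on GRCm38.p6. The labels name single embryos but no litters or batches, so p-values measure the spread between embryos, and intervals cover counting error only.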

Additional observations from a re-analysis of the deposited data

Results flagged for a closer look

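Of 54 sets of 4 values examined, 3 held a value set apart from the other 3 by Dixon's criterion, where chance gives about 1 in 20, or 2.7. Gata2 was low in Isl1_hypo replicate 3, at a log2 CPM of 3.43 against 4.04 to 4.12 in the rest of its group. The summed haematopoietic progenitor markers, of which Cd34 makes up 93.2%, were high in CTRL replicate 1, at a log2 CPM of 8.38 against 7.93 to 7.95. The summed GATA and FOG relatives, led by Gata4, were high in CTRL replicate 3, at a log2 CPM of 9.42 against 8.97 to 9.05. No cause was tested.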

How the results depend on the processing

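Of 190 log2 fold changes of the regulators under alternatives, 181 kept their direction and side of the threshold, 8 passed it newly and 1 reversed, that of Lmo2 (0.03 without CTRL replicate 3, which also took the median of the shared genes to 0.03, and -0.34 to 0.03 with a library left out). Newly passing were Hemgn (5 alternatives), Klf1, Gfi1b and Tal1 (1 each). Regulators called higher numbered 4 with DESeq2, 1 with limma-voom, 1 with no filter, 1 with at least 10 counts in every library, and 0 to 1 with a library left out. All genes called higher numbered 148 with DESeq2, 71 with limma-voom, 0 with the globin covariate, 6 with the endothelial covariate and 2 to 31 with a library left out, and those called lower 171, 63, 0, 0 and 1 to 24. Red-cell target genes called numbered 12 with DESeq2, 10 with limma-voom, 3 without the filter, 3 with at least 10 counts in every library, 0 with either covariate and 0 to 12 with a library left out. DESeq2 called 2 partners, 1 endothelial marker, 2 cardiomyocyte markers and 1 GATA or FOG relative. The median of the restricted genes was 0.29 with the globin covariate. The Gata1 to Gata2 difference was 1.65 to 2.81 with a library left out.

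Relative to the summed red-cell target genes other than globins, of which Alad, made by many cells, is 20.2%, the median difference was 0.80 for the restricted and -0.76 for the shared genes. It was -0.62 and -2.18 against embryonic globins, and -0.47 and -2.03 against the red-cell genes added after seeing the data. Relative to endothelial markers the shared median was 0.05, and 0.43 against Pecam1 and Cdh5.

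With the replicate number as a block, 0 genes were called higher and 0 lower, and 0 red-cell target genes. Same-numbered embryos did not deviate together (correlations 0.019, -0.021, 0.013 and 0.022), so the numbers do not pair the samples. Isl1 kept its direction but passed no threshold with the block (-2.29), the globin covariate (-2.30) or the endothelial covariate (-2.18). The 4 embryos a group and the low counts of Gata1 and Gfi1b in CTRL limit the precision. The causes of these changes were not tested.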
